A study of Mus musculus with 16 samples.

Results

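Hepcidin and the genes of iron handling were followed through 8 genes, Hamp, Hamp2, Slc40a1, Tfrc, Fth1, Ftl1, Hmox1 and Slc11a1, out of 48440 gene rows, in single cells of mouse lymph nodes. The members were the rows carrying these symbols, and 9 rows did, because a processed pseudogene on chromosome 8, named Fth-ps3 in the annotation, shares the symbol Fth1. That row held 5 UMIs (unique molecular identifiers, counts of captured RNA molecules) and was not used further. The genes were selected on earlier measured values of these data, among them the high Hamp UMIs that led a cluster of marginal reticular cells, so levels by cell type are given below as descriptions, and tests were run only between nodes and mice.

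The 16 libraries came from lymph nodes of 8-week-old, sex-matched C57Bl/6 mice. In the 2 tumor arms 500000 MC38 cells, a mouse colon carcinoma line, were placed under the skin of the lower right flank either live or fixed, so that fixed cells brought tumor material without growth, and nodes were taken at day 12. There were 4 naive libraries and, in each tumor arm, 3 libraries of draining and 3 of non-draining nodes. Draining and non-draining nodes are those on the tumor side and the opposite side. All nodes were digested and enriched for cells bearing podoplanin (PDPN), a surface protein of fibroblastic and lymphatic endothelial cells, before 10x Genomics 3′ v3 sequencing, so the share of each cell type in a library reflects that enrichment. Per the study's methods each tumor-arm mouse gave a node of either side, but the labels do not tie the replicate letters to animals, so the libraries were fitted without pairing, and the p-values below measure the spread between libraries, which may be technical. Libraries held 7486725 to 48945961 UMIs in 1575 to 8039 barcodes. Of 68741 barcodes, 50386 passed the limits on genes and mitochondrial UMIs, and marker panels placed them in 20 cell types, each written here as "-like". The panels left 9769 barcodes (19.4%) without a type. Only 330 barcode sequences occurred in more than 1 library, at most 10 between any pair.

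Hepcidin, the peptide encoded by Hamp, is best known as a liver hormone that binds the iron exporter ferroportin, encoded by Slc40a1, and causes its loss from the cell surface, so that iron stays inside macrophages and gut cells. Its transcription is driven by bone morphogenetic protein signals through SMAD proteins and by interleukin-6 through STAT3. Transferrin receptor (Tfrc) brings iron in, the ferritin chains Fth1 and Ftl1 store it, heme oxygenase 1 (Hmox1) frees it from heme, and Slc11a1 (NRAMP1) moves it out of the phagosomes of macrophages. Iron regulatory proteins bind hairpins in the untranslated regions of several of these transcripts when iron is low.

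Hamp (ENSMUSG00000050440.8, chr7:30942368-30944032, minus strand, GRCm38) and Hamp2 (ENSMUSG00000056978.7, chr7:30922372-30924681, minus strand) lie 17686 bases apart. The 250 bases before each RefSeq start are shown because the members of this pair behaved differently in the same cell type, as described below. The Hamp2 stretch lies within the Hamp2 gene coordinates given above, whose annotated start is further upstream. The sequences are from RefSeq on GRCm38.p6 (Hamp chr7:30944030-30944279, Hamp2 chr7:30924182-30924431, both minus strand), and the capitals mark GGCGCC, the core letters of a SMAD-type site, or the bases aligned to it, and TTCNNNGAA, the letters of a STAT-type site.
Hamp: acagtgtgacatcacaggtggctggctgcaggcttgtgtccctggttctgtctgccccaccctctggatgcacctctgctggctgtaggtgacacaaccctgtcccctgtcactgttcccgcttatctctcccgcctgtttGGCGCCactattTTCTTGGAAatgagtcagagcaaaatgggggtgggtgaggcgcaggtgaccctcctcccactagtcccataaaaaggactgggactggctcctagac
Hamp2: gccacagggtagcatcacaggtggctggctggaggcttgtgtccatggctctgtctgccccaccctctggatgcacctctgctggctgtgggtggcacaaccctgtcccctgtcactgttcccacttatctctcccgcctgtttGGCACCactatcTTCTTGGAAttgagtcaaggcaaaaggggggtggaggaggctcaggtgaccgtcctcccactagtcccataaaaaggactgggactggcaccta
Of 247 aligned bases, 227 (91.9%) were identical. TTCTTGGAA stood in both, 97 bases before the start in Hamp and 94 in Hamp2. GGCGCC stood 109 bases before the start of Hamp, and the aligned bases of Hamp2 were GGCACC, the substitution G4A counted from the first base of the motif. Among 32851 promoters of the same table, on both strands, GGCGCC occurred in 3149 (9.59%) and TTCNNNGAA in 2306 (7.02%). The transcripts were 94.6% identical over 410 aligned bases, and 0 of the 320 windows of 91 bases, the length of a read, were shared, although reads with few differences may still be assigned to the wrong gene of the pair.

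The iron-responsive hairpins of the other members are shown because they tie ferritin, ferroportin and transferrin receptor to a common sensor that acts on RNA. Each is a stretch of 27 bases of the annotated transcript, with the loop letters CAGTGN in capitals.
Fth1, 5′ untranslated region: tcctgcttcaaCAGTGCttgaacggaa
Ftl1, 5′ untranslated region: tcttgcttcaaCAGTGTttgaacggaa
Slc40a1, 5′ untranslated region: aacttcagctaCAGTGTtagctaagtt
Tfrc, 3′ untranslated region, the first of 4: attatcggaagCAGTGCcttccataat
These are matches of letters and pairing only. Translation was not measured here, and a 3′ UMI count follows the amount of transcript.

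Hamp was most abundant in follicular dendritic cell (FDC)-like and marginal reticular cell (MRC)-like cells. FDCs hold antigen for B cells, and MRCs lie under the capsule beside the follicles. Pooled over libraries, Hamp stood at 578 UMIs per 1000000 (CPM) in 170 FDC-like cells and 380 CPM in 2517 MRC-like cells, and the library ranges of the pair overlapped. The next types were blood endothelial (BEC)-like cells at 22.4 CPM, B cell-like cells at 13.7 and mast cell-like cells at 13.6, and the remaining types lay at 11.9 or less. MRC-like cells held 71.7% of all Hamp UMIs in the kept cells. The value in BEC-like cells rested on few cells, since 50 of 135 UMIs came from a single barcode.

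Thinned to 2000 UMIs per cell, 415 of 2272 MRC-like cells (18.3%, Wilson 95% interval 16.7 to 19.9%) and 20 of 152 FDC-like cells (13.2%, 8.68 to 19.5%) had a Hamp UMI. The share was 1.49% in B cell-like, 0.757% in T cell-like and 0.562% in dendritic cell-like cells, and the source of these UMIs was not tested. Without thinning the shares were 32.2% in MRC-like, 22.4% in FDC-like and 1.65% in T cell-like cells, with median depths of 9847, 11320 and 4388 UMIs. The intervals cover counting error only.

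Hamp2 had another distribution among fibroblastic cells. It stood at 148 CPM in MRC-like cells and 72.0 CPM in 3150 medullary reticular cell (MedRC)-like cells, at 27.7 in pericyte-like cells and at 4.99 in T-zone reticular cell (TRC)-like cells. In FDC-like cells, where Hamp was highest, a single Hamp2 UMI was counted (0.504 CPM). Thinned, 17.2% of MRC-like, 6.35% of MedRC-like and 0 of 152 FDC-like cells had a Hamp2 UMI, and a count of 0 allows a share of cells with a UMI of up to 1.97% (3 cells). In B cell-like cells the share was 0.277%.

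Within MRC-like cells most thinned cells had a UMI of neither gene of the pair, and no order could be read from their overlap. In a separate thinning draw, with 412 Hamp and 386 Hamp2 cells, 357 of 2272 cells had Hamp only, 331 Hamp2 only, 55 both and 1529 neither. Hamp2 was present in 13.4% of thinned cells with Hamp and in 17.8% of the others. Without thinning, 328 of 2517 cells held both, and the direction was the opposite, with Hamp2 in 40.4% of the 811 cells with Hamp and in 31.2% of the others. The 10% of MRC-like cells with the most UMIs of each gene held 88.0% of Hamp and 70.1% of Hamp2 UMIs, with up to 252 Hamp UMIs and 61 Hamp2 UMIs in a cell. Id1, a target of SMAD signalling chosen after its values were seen, was present in 44.4% of thinned cells with Hamp and 33.3% of those without, and in 37.1% of cells with Hamp2 against 34.99% without. Smad6 was present in 19.9% of cells with Hamp against 14.7% without, and in 18.4% with Hamp2 against 15.1% without. For Smad7 the shares were 26.2 against 20.2% by Hamp and 20.5 against 21.4% by Hamp2. All these shares pool the groups, whose Hamp2 levels differed, as given below. No test was made of these shares, since cells of a library are not replicates.

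**Figure D1:**
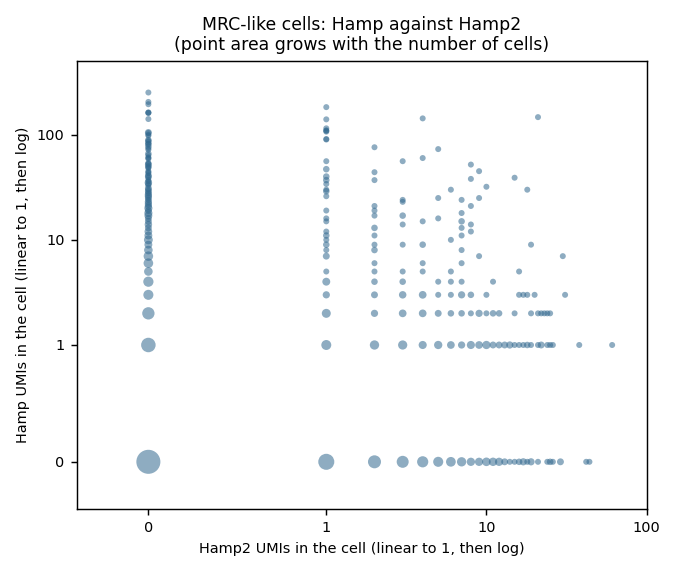
Hamp UMIs (vertical axis) against Hamp2 UMIs (horizontal axis) in each MRC-like cell, both axes linear to 1 and logarithmic above, with the area of a point growing with the number of cells. Counts are not thinned, and 328 of the 2517 cells held both genes. Of 227 cells with at least 10 Hamp UMIs 160 (70.5%) had no Hamp2 UMI, and of 119 cells with at least 10 Hamp2 UMIs 56 (47.1%) had no Hamp UMI. Over all 2517 cells 34.2% had a Hamp2 UMI and 32.2% a Hamp UMI.

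The 5 genes whose level across the 20 cell types was most like that of Hamp (Pearson's r of log2(CPM + 1), a description over types that share libraries) were Syt1 (0.97), Slco1a5 (0.93), Acvr1c (0.92), Snap91 (0.91) and Mlc1 (0.90). Syt1 and Snap91 encode proteins of vesicle release, and Acvr1c encodes a receptor of the activin and nodal family. Syt1 was highest in FDC-like cells, at 451 CPM.

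The exporter gene Slc40a1 was mostly counted in macrophage-like cells in these nodes. Macrophage-like cells, 1451 in number, held 70.0% of its UMIs at 108 CPM, and no library of the next abundant well-sampled type, medullary lymphatic endothelial (MedLEC)-like cells at 3.11 CPM, reached a library of macrophage-like cells. The 91 neutrophil-like cells stood at 171 CPM from 60 UMIs in 30 cells, and 14 of the 16 libraries held fewer than 10 such cells. In FDC-like cells 0 UMIs were counted, which allows up to 1.51 CPM, and in MRC-like cells Slc40a1 stood at 0.431 CPM. The 5 genes most like Slc40a1 across types were Dhrs1 (0.95), C5ar1 (0.93), Angptl7 (0.91), Tspan10 (0.89) and Nkpd1 (0.88), where 4 of the 5 were highest in the few neutrophil-like cells.

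Hmox1 too was mostly counted in macrophage-like cells, at 939 CPM with 54.6% of the UMIs. The lowest macrophage-like library lay above both neutrophil-like libraries with at least 10 cells, the type next in order at 82.5 CPM. Slc11a1 stood at 118 CPM in macrophage-like cells and at 109 CPM in pericyte-like cells, whose library ranges overlapped, followed by monocyte-like cells at 70.8 CPM and TRC-like cells at 25.6 CPM. Lymphatic and B cell-like cells lay at 1.69 CPM or less. Tfrc was low throughout, highest in macrophage-like (36.5 CPM), FDC-like (32.7 CPM) and B cell-like cells (32.7 CPM), which did not differ beyond the spread of their libraries, and lowest in perivascular reticular cell (PRC)-like cells at 1.98 CPM.

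The ferritin genes were found in every type. Fth1 was present in 88.2% of all kept cells and ranged from 528 CPM in plasma cell-like to 9471 CPM in MedLEC-like cells, with 8652 CPM in floor lymphatic endothelial (fLEC)-like, 8217 CPM in MRC-like and 7596 CPM in macrophage-like cells. Ftl1 followed a different order, highest in macrophage-like cells (5315 CPM), then neutrophil-like (3333 CPM) and FDC-like cells (3084 CPM), and lowest in B cell-like cells (660 CPM). Levels are per UMI and a 3′ library gives about 1 UMI per captured transcript whatever its length.

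**Figure D2:**
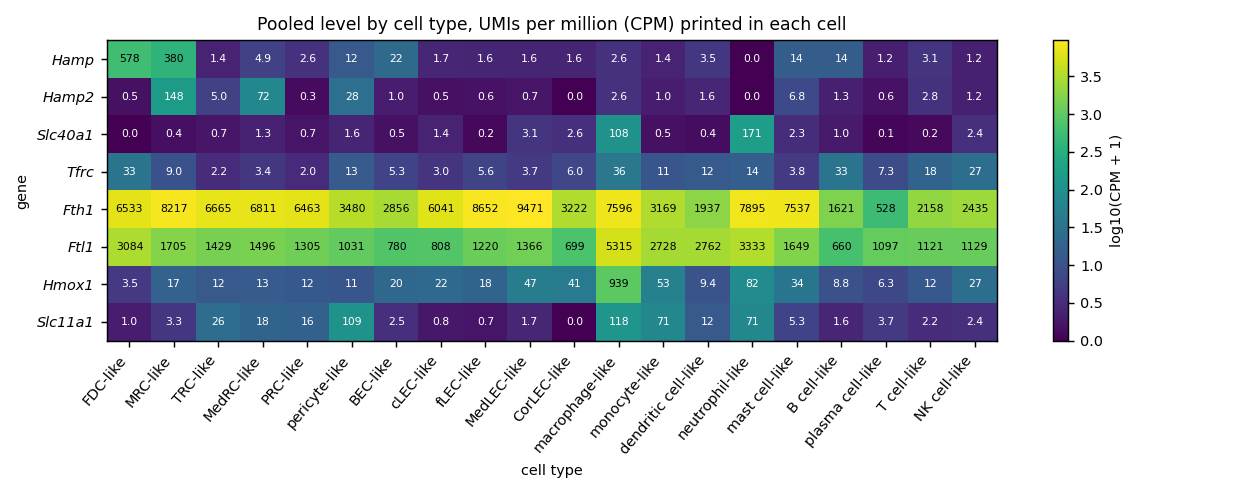
Pooled level of each member (rows) in each of the 20 cell types (columns), with the CPM printed in the cell and the colour showing log10(CPM + 1). Hamp stands out in FDC-like and MRC-like cells, Hamp2 in MRC-like and MedRC-like cells, and Hmox1 in macrophage-like cells. Slc40a1 stands out in the few neutrophil-like cells and in macrophage-like cells, and Fth1 and Ftl1 are high throughout.

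The limit of 6000 genes per barcode, taken from the study's methods, mattered more for Hamp than for any other member. The 1525 barcodes above it held 16368 of 31454 Hamp UMIs (52.0%), 28.1% of Slc40a1 and 12.3% of Hamp2 UMIs, and made up 34.9% of FDC-like and 13.3% of MRC-like cells when the limit was lifted. Such barcodes may hold more than 1 cell, and no doublet caller was run. With them Hamp stood at 763 CPM in FDC-like, 419 CPM in MRC-like, 39.0 CPM in B cell-like and 24.6 CPM in T cell-like cells. Results below keep the limit unless stated, and lifting it was chosen after the data were seen.

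In MRC-like cells Hamp did not differ detectably between draining and non-draining nodes. Live draining libraries stood at 343, 498 and 367 CPM and live non-draining libraries at 394, 487 and 268 CPM. The groups overlapped (403 ± 83.6 against 383 ± 110, SD, n = 3 each), with a log2 fold change of 0.06 (SE 0.27, 95% interval −0.48 to 0.59, adjusted p = 0.925 in edgeR's quasi-likelihood test with Benjamini-Hochberg adjustment over all genes tested). Fixed draining libraries stood at 334, 445 and 430 CPM and fixed non-draining libraries at 489, 282 and 704 CPM (log2 fold change −0.25, adjusted p = 0.953), and the 4 naive libraries ran from 132 to 455 CPM. The live and fixed effects differed by 0.30 on the log2 scale (adjusted p = 0.745). The sign of the live difference turned with a stricter gate (−0.08) and without live draining B (−0.12) or live non-draining C (−0.10).

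The share of thinned MRC-like cells with a Hamp UMI was 16.8, 18.1 and 18.8% in live draining and 22.8, 21.2 and 21.3% in live non-draining libraries. These ranges did not overlap, and the difference of −3.84 percentage points had an exact two-sided permutation p of 0.1, the smallest that 3 against 3 libraries allow. Without thinning the difference was 0.144 percentage points (exact permutation p = 1).

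FDC-like cells showed a far larger difference. With the gene limit, live non-draining B and C fell under the minimum of 10 cells and no test was run, with 46 cells in live draining libraries with 4 Hamp UMIs in all and 29 cells in live non-draining libraries with 524, none of which fell in replicate C. Without the limit there were 17 to 21 cells in each live draining library and 11 to 31 in each live non-draining library, and Hamp stood at 10.3, 40.8 and 3.397 CPM against 1905, 2198 and 1461 CPM. The groups were separated by a wide gap, and the counts behind the low group were 3, 14 and 1 UMIs (exact Poisson 95% intervals 2.12 to 30.1, 22.3 to 68.5 and 0.086 to 18.9 CPM). The log2 fold change was −6.50 (SE 0.55, edgeR adjusted p = 1.42e-08), where 182 of 6463 genes (2.82%) were called in FDC-like cells, and it ran from −7.95 to −6.06 as each library was left out. Because the limit was lifted after the data were seen, p-values for Hamp without it, here and below, are not independent tests. Few cells held most of these UMIs, as given below.

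Without the limit naive FDC-like cells lay between, at 304, 263, 377 and 195 CPM. With it, naive libraries stood at 713, 801, 655 and 543 CPM and live non-draining libraries at 2079, 3486 and 0 CPM, so that live non-draining C, with 4 cells, lay below every naive library and the order was not kept. Live draining libraries then stood at 14.4, 4.506 and 7.79 CPM. Without the limit, live non-draining libraries were above all 4 of them (log2 fold change 2.69, SE 0.34, edgeR adjusted p = 9.08e-05), a comparison in which 3 of 6463 genes (0.0464%) were called, and DESeq2 gave 2.68 with adjusted p = 0.274. Both live comparisons share the live non-draining libraries. Fixed draining libraries stood at 74.4, 249 and 707 CPM and fixed non-draining libraries, with 6 or 7 cells each, at 302, 1216 and 4005 CPM. These ranges overlapped, and with fewer than 10 cells in each fixed non-draining library neither the fixed effect nor its difference from the live effect was tested.

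The Hamp UMIs of FDC-like cells sat in few cells. In live non-draining C, 421 of 479 UMIs came from a single barcode. With the top cell of each library removed, live non-draining libraries stood at 201.1 to 1496 CPM, naive at 21.3 to 70.7 CPM and live draining at 0 to 3.50 CPM, so the order of the groups without the limit was as before. At least 10 Hamp UMIs were found in 12 of 54 live non-draining, 6 of 67 naive, 7 of 62 fixed draining, 5 of 20 fixed non-draining and 1 of 58 live draining cells. Thinned to 2000 UMIs, the share of cells with a Hamp UMI was 26.1% ± 13.5 in live non-draining and 3.81% ± 3.31 in live draining libraries (SD, n = 3 each, exact permutation p = 0.1), and 31.0% against 12.2% in fixed non-draining and draining libraries (exact permutation p = 0.2).

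The FDC markers did not move as a group. Cr2, a complement receptor that defines FDCs among stromal cells, stood lower, at 2954 to 3335 CPM in live draining and 4992 to 5782 CPM in live non-draining FDC-like cells. Tmem119 stood higher, at 516 to 669 against 430.0 to 509 CPM, and Pthlh (741 to 823 against 731 to 766 CPM) and Fcer2a (904 to 1208 against 526 to 1128 CPM) overlapped. Outside the panel, the B cell chemokine gene Cxcl13 stood at 11950 to 14130 against 20580 to 27560 CPM. Clu, chosen after its values were seen, stood at 19630 to 22100 against 16490 to 19340 CPM. The B cell marker Cd79a was at 6.86 to 44.2 CPM in live draining and 21.4 to 37.3 CPM in live non-draining libraries, and the T cell marker Cd3e at 0 in the former and at 0 to 3.05 CPM in the latter. Whether doublets or a shift among the FDC-like cells took part in the Hamp difference was not tested. Of the other members, Fth1 (log2 fold change 0.06), Ftl1 (0.21) and Tfrc (0.17) were measured in these cells and did not pass the test, and of the other iron genes Id1 (−1.44, adjusted p = 0.0138), the interleukin-6 signal transducer Il6st (−0.74) and Hif1a (−0.72) fell.

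**Figure D3:**
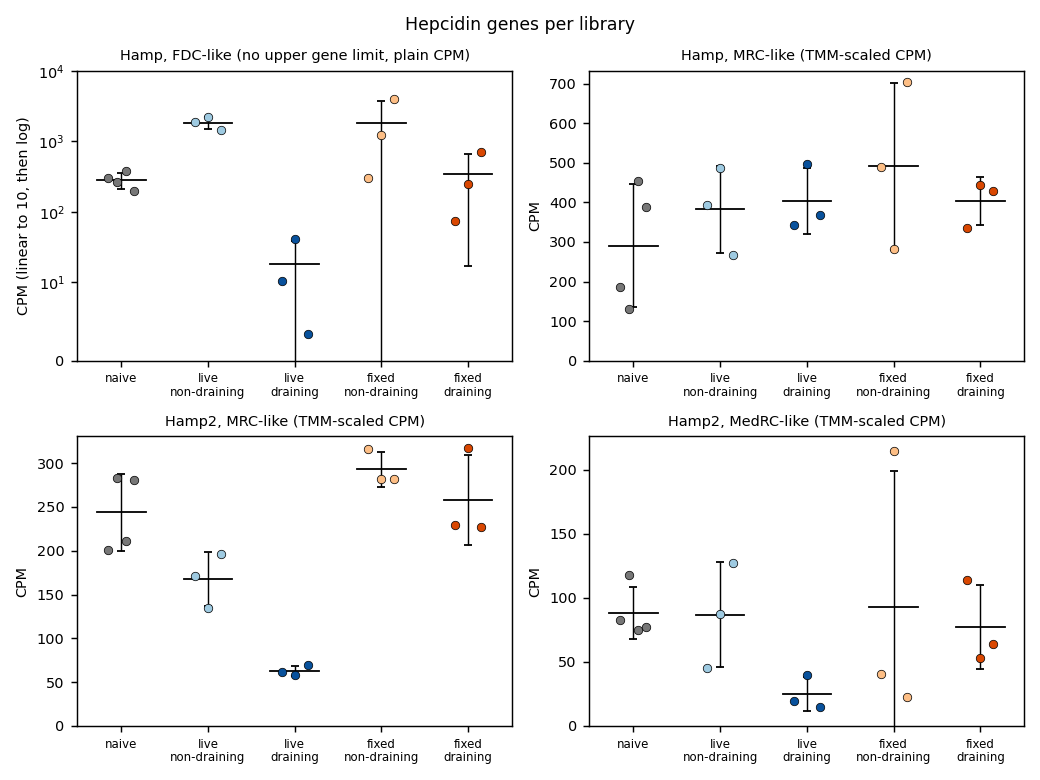
Level of Hamp in FDC-like cells (no gene limit, axis linear to 10 CPM and logarithmic above) and of Hamp in MRC-like and Hamp2 in MRC-like and MedRC-like cells (linear axes), by group. Points are libraries, bars the mean and SD, with bars cut at 0 where they would go below it. Hamp in FDC-like and Hamp2 in MRC-like cells are lowest in the 3 live draining libraries, while Hamp in MRC-like cells overlaps among all groups.

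Hamp2, in contrast to Hamp, fell in MRC-like cells of live draining nodes. It stood at 62.0, 58.0 and 69.2 CPM in live draining and 171, 135 and 197 CPM in live non-draining libraries. All 3 draining libraries were below all others of the series, whose lowest was 135 CPM (63.1 ± 5.71 against 168 ± 31.1, SD, n = 3 each). The log2 fold change was −1.40 (SE 0.16, edgeR adjusted p = 1.31e-07), and 18.3% of the genes tested in MRC-like cells were called. Fixed draining libraries stood at 229, 318 and 227 CPM, fixed non-draining at 316, 282 and 282 CPM, and naive libraries at 200 to 283 CPM. The live effect differed from the fixed effect by −1.22 on the log2 scale (SE 0.21, edgeR adjusted p = 4.72e-04), and both calls held under every alternative run, over −1.63 to −1.30 and −1.33 to −1.04. Thinned, 6.48 to 9.93% of live draining and 13.5 to 21.3% of live non-draining MRC-like cells had a Hamp2 UMI, against 20.9 to 30.4% in naive libraries.

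The 4 FDC markers of the panel summed to 354 to 382 CPM in live draining and 673 to 788 CPM in live non-draining MRC-like cells. The sum was 446 to 630 CPM in naive, 492 to 657 CPM in fixed draining and 564 to 613 CPM in fixed non-draining libraries. These groups lay below live non-draining libraries for the sum but above them for Hamp2. Among the 4 FDC markers Cr2 fell between live nodes (log2 fold change −1.70, edgeR adjusted p = 4.66e-09). Pthlh (0.17) and Tmem119 (0.09) did not pass the test, and Fcer2a was not tested. FDC-like cells themselves held a single Hamp2 UMI. The 4 MRC markers summed to 31580 to 32600 against 31230 to 38950 CPM, and among them Madcam1 (log2 fold change −0.60) and Enpp2 (−0.69) fell while Cxcl13 (−0.02) and Tnfsf11 (−0.22) did not pass the test. The part of such shifts in the Hamp2 difference was not tested.

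MedRC-like cells showed the same direction. Hamp2 stood at 19.5, 40.1 and 14.7 CPM in live draining and 45.2, 87.6 and 127 CPM in live non-draining libraries, ranges close but not overlapping. The log2 fold change was −1.74 (SE 0.43, edgeR adjusted p = 0.00716), where 9.4% of genes were called, and the call was lost with DESeq2 (adjusted p = 0.092) and without live non-draining C (−1.29, adjusted p = 0.133). Fixed draining libraries stood at 114, 52.8 and 63.9 CPM and fixed non-draining at 40.7, 215 and 22.6 CPM, which overlapped. The 3 MedRC markers of the panel summed to 11360 to 11510 CPM in live draining and 13710 to 13900 CPM in live non-draining MedRC-like cells, and among them Inmt (−1.003) and Stc1 (−0.72) fell while Cxcl12 (−0.15) did not pass the test. Their part in the Hamp2 difference was not tested.

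Across all members and types with enough cells, 13 of 66 pairs of a member and a type were called between live draining and live non-draining nodes, 9 higher and 4 lower in draining nodes, where 10.7% of all 136446 pairs of a gene and a type were called. Of the 13, Fth1 gave 7, and Hamp2, Ftl1 and Hmox1 gave 2 each. Between fixed draining and fixed non-draining nodes 0 of 64 pairs were called by edgeR (11 at an unadjusted p under 0.05, and 1 called by DESeq2), with a background of 0.531%. The live and fixed effects differed in 6 of 64 pairs (background 4.83%).

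Ferritin heavy chain transcripts rose in live draining nodes in 7 of 17 types. In BEC-like cells Fth1 stood at 4973, 6097 and 8475 CPM in live draining and 2229, 2166 and 2010 CPM in live non-draining libraries. The lowest draining library was more than any other library of the series, naive and fixed included, whose highest was 2983 CPM. The log2 fold change was 1.61 (SE 0.21, edgeR adjusted p = 2.01e-05), with 17% of genes called in BEC-like cells, and it kept its call under all alternatives run, at 1.05 to 1.79. It exceeded the fixed effect by 1.20 (adjusted p = 0.0165), a call lost with the stricter gate (0.75, adjusted p = 0.349) and without live draining C, fixed non-draining A or fixed non-draining C.

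In T cell-like cells Fth1 stood at 2993, 3397 and 3742 CPM in live draining against 1573, 1671 and 1655 CPM in live non-draining libraries, which did not overlap (log2 fold change 1.05, SE 0.13, edgeR adjusted p = 8.29e-05, background 4.31%). Dendritic cell-like cells stood at 2937, 2494 and 2899 against 1935, 1776 and 1474 CPM (0.68, adjusted p = 4.31e-05, background 11.1%). Ceiling lymphatic endothelial (cLEC)-like cells rose by less, 7511, 7064 and 7654 against 6476, 5152 and 5284 CPM (0.39, adjusted p = 1.73e-04, background 20.1%). These 3 calls held under every alternative run. The live effect exceeded the fixed effect in dendritic cell-like (0.63, adjusted p = 0.00363, lost with the stricter gate) and cLEC-like cells (0.41, adjusted p = 0.00618).

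In macrophage-like cells Fth1 stood at 10160, 8851 and 7992 CPM in live draining and 6173, 7006 and 4902 CPM in live non-draining libraries (0.58, adjusted p = 0.0301, background 8.94%). Monocyte-like (0.61, adjusted p = 0.028, background 0.942%) and B cell-like cells (0.52, adjusted p = 0.0406, background 2.32%) also passed. These 3 calls were not firm. The macrophage-like and monocyte-like calls were lost with the 10% mitochondrial limit (adjusted p = 0.0538 and 0.0552). The macrophage-like call was also lost without live draining A or B or live non-draining A or C, the monocyte-like call without live draining B or C or live non-draining B or C, and the B cell-like call with DESeq2, the stricter gate or no gene limit and without live draining B or C, fixed draining C or any live non-draining library.

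Markers of macrophages, which are rich in Fth1, were followed in these types because free RNA can carry them. They cannot trace free RNA of MedLEC-like, fLEC-like or MRC-like cells, where pooled Fth1 was higher than in macrophage-like cells. The 7 macrophage markers were all detected. They summed to 35.7 to 51.7 CPM in live draining and 49.7 to 64.7 CPM in live non-draining BEC-like cells, and to 20.4 to 29.4 against 27.2 to 32.6 CPM in cLEC-like cells, and in both the ranges overlapped. They were higher in live draining nodes in dendritic cell-like (50.6 to 61.4 against 15.96 to 25.8 CPM) and monocyte-like cells (565 to 696 against 369 to 409 CPM), and overlapped in T cell-like (20.2 to 73.7 against 18.1 to 32.2 CPM) and B cell-like cells (33.5 to 89.4 against 7.83 to 37.5 CPM). Their part in the Fth1 differences of these 6 types was not tested.

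The light chain gene Ftl1 was called in fewer types than Fth1, and both were called only in BEC-like cells. It rose in BEC-like cells (968, 1082 and 1144 against 795, 774 and 721 CPM, log2 fold change 0.48, edgeR adjusted p = 0.0203) and fell in MRC-like cells (1457, 1597 and 1586 against 2015, 2082 and 1703 CPM, −0.32, adjusted p = 0.0323). In neither did the groups overlap. With replicate letters as a block they were 0.46 in BEC-like (adjusted p = 0.0519) and −0.32 in MRC-like cells (adjusted p = 0.0643). Both calls were lost with the block, the stricter gate, the 10% mitochondrial limit and no low-count filter. The BEC-like call was also lost without live draining B or C or live non-draining B or C, and the MRC-like call without any live draining library or live non-draining A or B. In the other 15 types tested Ftl1 did not pass.

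Heme oxygenase 1 moved in opposite directions in a pair of myeloid types. In dendritic cell-like cells Hmox1 stood at 17.9, 22.3 and 19.8 CPM in live draining and 5.47, 2.94 and 6.84 CPM in live non-draining libraries, without overlap (log2 fold change 1.92, SE 0.41, edgeR adjusted p = 0.00283), and the call held under every alternative run. The macrophage markers rose in the same cells, as given above, and their part was not tested. In macrophage-like cells, where the gene is abundant, it stood at 551, 929 and 774 CPM in live draining and 1656, 4102 and 907 CPM in live non-draining libraries, and live non-draining C lay below live draining B.

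The macrophage-like difference was −1.54 on the log2 scale (SE 0.33, edgeR adjusted p = 0.00462). It rested in part on live non-draining B, without which it was −0.78 (adjusted p = 0.0812), and on the gene limit, without which it was −0.89 (adjusted p = 0.133). Fixed draining libraries stood at 897, 727 and 567 CPM and fixed non-draining at 419, 374 and 537 CPM, all 3 draining libraries above all 3 non-draining ones (not called). The live and fixed effects differed by −2.30 (adjusted p = 0.0143), or −0.91 without the gene limit (adjusted p = 0.402), and this call was also lost without fixed non-draining A (adjusted p = 0.0532). The 7 monocyte markers summed to 893 to 1054 CPM in live draining and 480 to 729 CPM in live non-draining macrophage-like cells, the tissue macrophage markers Mertk (log2 fold change −0.83) and Siglec1 (−0.80) fell, and C1qa (−0.01) and Adgre1 (−0.05) did not pass the test. Whether a change in the kinds of macrophage took part was not tested.

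Slc40a1 in macrophage-like cells varied between libraries of a group as much as between groups. Live draining libraries stood at 42.2, 113 and 152 CPM, live non-draining at 148, 588 and 71.8 CPM, fixed draining at 108, 36.6 and 30.2 CPM, fixed non-draining at 32.3, 130 and 220 CPM and naive at 156, 164, 124 and 57.0 CPM. Live non-draining B, with 42 macrophage-like cells, was again the highest library, as for Hmox1. Over the series up to 87 Slc40a1 and 505 Hmox1 UMIs were counted in 1 cell. The part of single cells in this library was not tested. The live difference was −1.19 (edgeR adjusted p = 0.179), passing only without the low-count filter (−1.11, adjusted p = 2.54e-06), and ran down to −0.19 among the alternatives. Slc11a1 stood at 92.4 to 160 CPM in macrophage-like cells of all 16 libraries and was called in 0 of 6 types in each of the 5 comparisons.

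**Figure D4:**
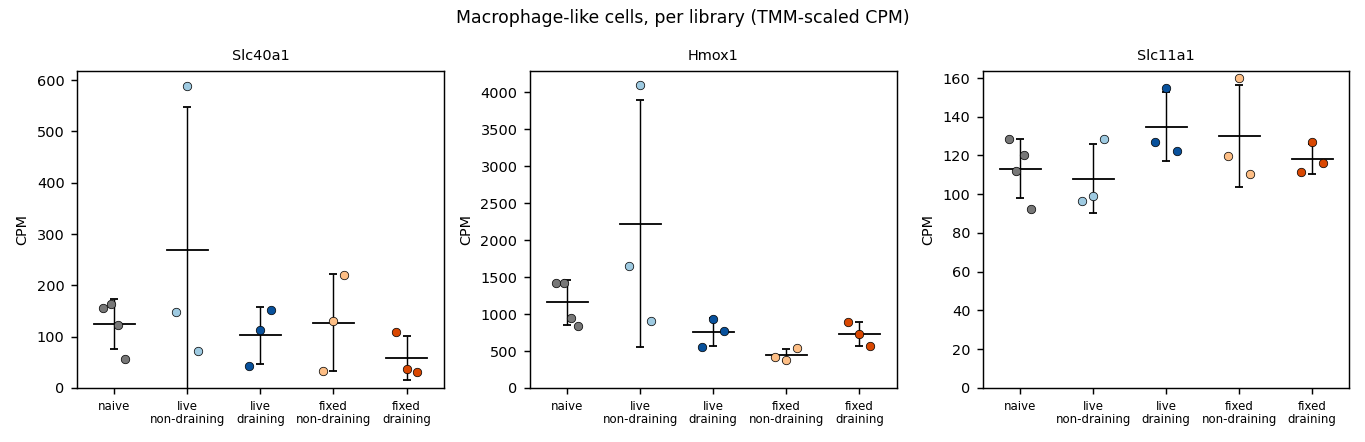
Level (CPM, linear axes from 0) of Slc40a1, Hmox1 and Slc11a1 in macrophage-like cells, by group. Points are libraries and bars the mean and SD, cut at 0. Live non-draining B is highest for Slc40a1 (588 CPM) and Hmox1 (4102 CPM), while Slc11a1 stays between 92.4 and 160 CPM.

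In fLEC-like cells, which line the sinus floor, Hmox1 stood at 16.7, 25.9 and 18.3 CPM in live draining and 24.0, 30.9 and 34.9 CPM in live non-draining libraries, and at 11.7, 15.9 and 13.4 against 10.9, 4.51 and 6.45 CPM in the fixed arm. Neither effect passed alone, and their difference did (−1.27, edgeR adjusted p = 0.0386). That call was lost with DESeq2 (adjusted p = 0.055), with the stricter gate (adjusted p = 0.13) and without live draining A or C, live non-draining B or C, fixed draining B or C or fixed non-draining B or C. Tfrc was called in 0 of 7 types between live nodes. In dendritic cell-like cells it stood at 10.1, 8.23 and 7.25 CPM in live draining against 15.1, 13.98 and 18.7 CPM in live non-draining libraries, which did not overlap (−0.88, adjusted p = 0.0505).

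**Figure D5:**
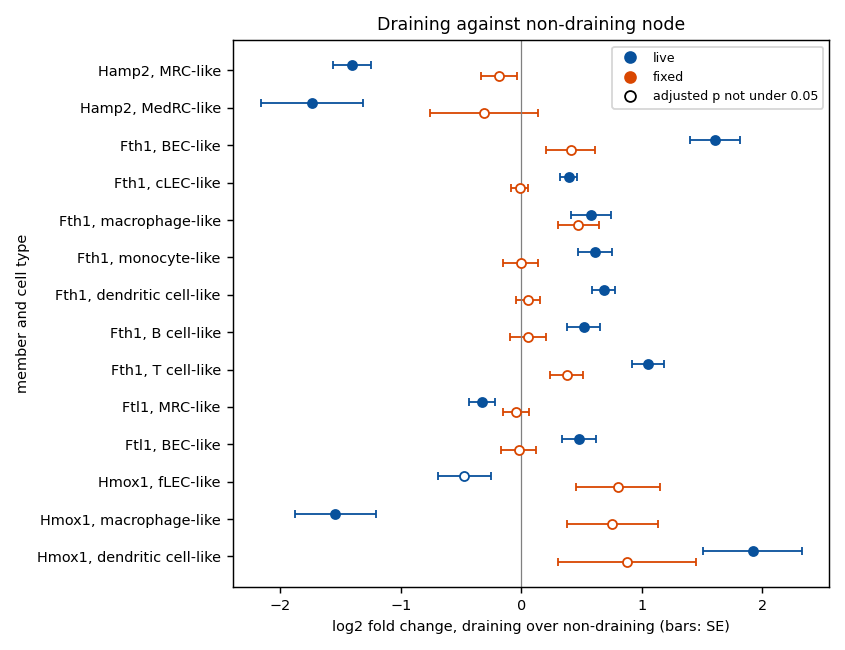
Log2 fold change of draining over non-draining nodes, with its SE, for each pair of a member and a type called in the live arm or in the difference of arms, in live (blue) and fixed (orange) arms. Filled points passed the test, and no fixed point is filled. Hamp2 falls and Fth1 rises in the live arm, from 0.39 in cLEC-like to 1.61 in BEC-like cells.

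Against naive mice, 0 of 66 pairs were called in live non-draining nodes by edgeR (11 at an unadjusted p under 0.05, and 0 by DESeq2, background 0.415%), and 6 of 64 in fixed non-draining nodes (background 1.92%). In the latter Fth1 fell in macrophage-like (−0.76, from 8292 ± 1610 CPM in 4 naive to 4896 ± 553 in 3 libraries, adjusted p = 0.0236) and dendritic cell-like cells (−0.37), Ftl1 fell in dendritic cell-like cells (−0.54, adjusted p = 3.06e-06), Hmox1 fell in fLEC-like (−1.48) and monocyte-like cells (−2.05), and Tfrc rose in dendritic cell-like cells (1.10, from 9.28 ± 1.10 to 20.5 ± 7.20 CPM, adjusted p = 0.00594). The Ftl1 call held under every alternative run. The others were each lost under 1 to 5 of up to 21 alternatives, which for Fth1 in macrophage-like cells included leaving out fixed non-draining A or C or naive B, for Hmox1 in monocyte-like cells fixed non-draining A, and for the other 3 fixed non-draining B. The fixed non-draining libraries, with 1065 to 1785 kept cells, are also the reference of the fixed comparison.

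Beyond the members, 78 other genes of iron handling were found in the files. In MRC-like cells 62 were measured, of which 7 rose and 10 fell between live draining and live non-draining nodes (27.4%, against 18.3% of all genes tested in these cells), with a median log2 fold change of −0.06 (−0.01 over all genes tested). The 4 with the smallest p were Lcn2, which binds siderophores (1.92, SE 0.25), the cystine transporter Slc7a11 (1.58, SE 0.29), Id1 (0.45, SE 0.10) and Smad6, an inhibitor of BMP signals (−0.58, SE 0.13). Of the 18 measured genes that control hepcidin, 2 rose (Id1 and Socs3) and 4 fell (Smad6, Il6ra, Hfe and Il6st). Id1 rose more in the live than in the fixed arm (difference 0.72, edgeR adjusted p = 0.0012), as did Lcn2 (2.69, adjusted p = 0.00756, lost with the 10% mitochondrial limit and without fixed non-draining A or C). Hif1a (−0.49) and Il6st (−0.48) were lower in the live effect than in the fixed effect, calls lost under 11 and 12 of 23 alternatives, among them leaving out live draining A or B, live non-draining A or C, fixed draining A or B and fixed non-draining A, and with the replicate block (−0.50, adjusted p = 0.0934, and −0.47, adjusted p = 0.0932). The lists were drawn up with earlier results of these data known.

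In fLEC-like cells 54 were measured, 10 rose and 6 fell (29.6%), against a background of 25.4% of genes called. Lcn2 rose by 2.99, Hif1a by 0.95 and the metal importer Slc39a14 by 0.90, and Bmp2, a ligand that drives hepcidin in the liver, fell (−0.79, SE 0.09, edgeR adjusted p = 3.67e-08). In macrophage-like cells 0 of 48 rose and 3 fell (6.25%, against a background of 8.94%), the ferroxidase gene Cp (−0.86), the heme synthesis gene Cpox (−1.14) and the BMP receptor gene Bmpr2 (−0.64), of which only Cp held under every alternative run. Cpox lost its call without live draining A or C or live non-draining A or C, and Bmpr2 without live draining A or C or any live non-draining library and with the replicate block (−0.66, adjusted p = 0.0658).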

How the data were processed

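Per the labels, the authors deposited gene by barcode counts of UMIs for each library, made from 10x Genomics 3′ v3 reads with Cell Ranger 3.0.1 on mm10, and those counts were used as deposited. Barcodes with 200 to 6000 genes and at most 30% mitochondrial UMIs were kept, the limits of the study's methods. No doublet caller was run, and barcodes scoring for a second lineage at 0.7 or more of the best were left without a type. Each barcode was typed from marker panels (at least 2 markers, log scores scaled at the 0.9 quantile). The scoring rule was settled after values were seen. UMIs were summed per library and type, and types with at least 10 cells in a library were tested with edgeR 4.0.16 (TMM scaling, low-count filter, quasi-likelihood fit over all 16 libraries, Benjamini-Hochberg adjustment over all genes of a type, called under 0.05) in R 4.3.3. DESeq2 1.42.0 was an alternative. Levels by library are TMM-scaled CPM, and those of FDC-like cells and pooled levels plain CPM. Shares of cells were thinned to 2000 UMIs and tested by exact permutation over libraries. The test was checked on simulated counts.

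Named were the 8 members, up to 4 called genes of the iron lists with the smallest p in each comparison described, and the 5 genes most like Hamp and Slc40a1. The members and lists were chosen with earlier results of these data known. Lifting the gene limit, with its FDC-like tests, was added after seeing the data. The methods say that both nodes came from each mouse, but no label ties a letter to a mouse. Same-letter libraries did not clearly deviate together, which cannot exclude pairing, and the main fit has no block. Promoters of Slc40a1 and Hmox1 are not shown.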

Additional observations from a re-analysis of the deposited data

Results flagged for a closer look

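In 6 pairs the live and fixed draining effects differed by a test of the difference itself (edgeR, log2 scale): Hamp2 in MRC-like cells by −1.22, Fth1 in BEC-like cells by 1.20, in dendritic cell-like cells by 0.63 and in cLEC-like cells by 0.41, and Hmox1 in macrophage-like cells by −2.30 and in fLEC-like cells by −1.27. Their values by library are in the text above.

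Among the 66 groups of 4 naive libraries looked at, 8 held a library far from the others by Dixon's test, where chance gives about 1 in 20. For Fth1 these were naive B in cortical lymphatic endothelial (CorLEC)-like (3343 CPM), macrophage-like (10700 CPM) and monocyte-like cells (3799 CPM), naive A in TRC-like cells (6983 CPM) and naive D in fLEC-like cells (8362 CPM). For Ftl1 they were naive A in CorLEC-like (805 CPM) and NK cell-like cells (3062 CPM), and for Hmox1 naive A in fLEC-like cells (14.4 CPM).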

How the results depend on the processing

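Counts of member pairs moved by more than 1.5 times as follows. Between fixed nodes, where 0 were called, DESeq2 and the stricter gate gave 1 each and no low-count filter 5. With no low-count filter the difference of arms gave 11, live non-draining against naive 7 and fixed non-draining against naive 13. Live non-draining against naive gave 1 with the stricter gate and 1 with no gene limit. Of the other iron genes, pairs called against naive went from 3 to 8 in live non-draining nodes with no low-count filter and from 19 to 11 in fixed non-draining nodes with the stricter gate. Leaving out 1 library gave 3 to 10 pairs between fixed nodes (9 in all libraries), 1 to 4 in live non-draining and 8 to 19 in fixed non-draining nodes against naive, and member pairs ran from 9 to 14 between live nodes. Hamp in MRC-like cells was −0.0754 with the stricter gate in the live arm and ran over −0.120 to 0.255 in the live arm, −0.531 to 0.0635 in the fixed arm and −0.0049 to 0.589 in their difference as libraries were left out. Its share of cells turned from −3.84 to 0.144 percentage points without thinning and ran over −4.27 to −3.31 without single libraries. Hamp in FDC-like cells of live non-draining nodes against naive was 2.68 with DESeq2 (adjusted p = 0.274). The cause of these shifts was not tested. With the replicate block, 11 member pairs were called between live nodes, 0 between fixed nodes and 7 in the difference of arms. Same-letter libraries correlated at −0.13 to 0.12, which does not show pairing by letter and cannot exclude it. Per the methods each mouse gave both nodes. Of the single results named, 5 lost their call with the block, 10 with the stricter gate, 8 with at most 10% mitochondrial UMIs, 4 with no gene limit and 3 with DESeq2. Depth limits Slc40a1 outside macrophage-like cells, and the number of cells limits Hamp in FDC-like cells of fixed non-draining nodes. Neither was tested.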
